A study of Mus musculus with 96 samples.

Results

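Whole striatum of R6/2 mice was compared with that of NCAR mice at 3 months of age, in 8 RNA sequencing libraries of 96 in the series. The libraries were chosen by their labels alone, as those marked input RNA of R6/2 mice (4 libraries) or of NCAR mice (4 libraries) at 3 months. R6/2 mice carry a fragment of the human HTT gene with an expanded repeat as a transgene and are a fast model of Huntington's disease, and NCAR mice of the same strain (CBA x C57BL/6) were the controls. Mice of both groups had received an adeno-associated virus in the striatum, so every value below is from injected tissue, and the labels do not name its cargo. Input RNA is polyA RNA of the whole tissue, as opposed to the IP libraries of the same series, which hold RNA recovered by immunoprecipitation. All 8 libraries carry the same run label. Other groups are used only beside these: R6/2 and NCAR input at 2 months (same run label) and 1 month (another run label), R6/2 and NCAR IP at 3 months (same run label), and Q175 and WT input at 12 months (strain C57BL/6J, a further run label), with 4 libraries in each group. Q175 mice carry the expanded repeat in their own Htt gene. The labels do not state that each library is from its own mouse, and the p-values below therefore measure only the spread between libraries, which may in part be technical.

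The striatum is made up mostly of medium spiny neurons, which release GABA and project out of it. Those of the direct pathway carry dopamine D1 receptors and those of the indirect pathway dopamine D2 receptors, adenosine receptors and enkephalin. In both kinds dopamine acts through cyclic AMP and calcium, and the genes for this machinery are expressed at high level in the striatum. Loss of their transcripts is a known feature of Huntington's disease tissue and of its mouse models. Levels are given as CPM, the reads of a gene scaled to a library of 1 M reads, and differences as log2 fold changes of R6/2 over NCAR with their standard error (SE). A gene was called when its adjusted p (limma, Benjamini-Hochberg over all genes tested) was under 0.05. Whole tissue cannot tell fewer cells of a type apart from less RNA of a gene in each cell, and this holds for every marker below.

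The R6/2 libraries held 27.1 to 46.2 M reads and the NCAR libraries 27.9 to 35.3 M. Correlations of log2 CPM were 0.951 to 0.979 within a group and 0.912 to 0.951 between groups. The first principal component held 51.8% of the variance and separated the genotypes, with R6/2 libraries at -55.8 to -33.0 and NCAR libraries at 18.1 to 73.1. NCAR replicate 1 was the NCAR library nearest to R6/2, and NCAR replicate 3 the farthest. The R6/2 transgene is of human sequence and is not among the genes listed, so that mouse Htt does not check the genotype label. Htt (chr5:34761721-34912534, GRCm38) stood at 247, 191, 209 and 226 CPM in R6/2, against 245, 216, 240.4 and 251 CPM in NCAR. The groups overlapped, and Htt was not called (log2 fold change -0.13 ± 0.09, adjusted p = 0.333, 95% interval -0.34 to 0.08). Markers of the labelled tissue were high in all 8 libraries: the 25 medium spiny neuron genes together reached 9714 to 11477 CPM in R6/2 and 25030.4 to 26713 CPM in NCAR, whereas 9 genes of cortical and thalamic excitatory neurons together reached 16.1 to 31.5 CPM in R6/2 and 16.0 to 68.6 CPM in NCAR.

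Of 15368 genes tested, 4318 were called (28.1%), 1808 of them higher in R6/2 (11.8%) and 2510 lower (16.3%). Falls were the larger changes: 1041 genes were lower by over 2-fold and 203 higher by over 2-fold. The median log2 fold change over all genes was 0.02. For 4721 genes (30.7%) the libraries of the genotypes did not overlap. Without NCAR replicate 2 the count of calls was 2877, and without NCAR replicates 2 and 3, the libraries richest in immune transcripts, it was 1777 (552 higher and 1225 lower), 1706 of which were among the 4318. NCAR replicates 1 and 4, which that fit keeps, held the most cortical and thalamic transcripts of the NCAR libraries (68.2 and 68.6 CPM).

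Genes that mark medium spiny neurons were lower in R6/2, 23 of 25 by the test, with a median log2 fold change of -1.24 and none higher. Beside these shares stand the 16.3% of all genes called lower and the 11.8% called higher. Without NCAR replicates 2 and 3, 21 of 25 were called lower, with a median of -1.23. Ryr1 (chr7:29003340-29125179), a calcium release channel of intracellular stores, had 11.3, 10.3, 11.0 and 11.0 CPM in R6/2, against 103, 141, 174 and 165 CPM in NCAR. The R6/2 libraries were close together and Ryr1 fell 13.1-fold (log2 fold change -3.72 ± 0.15, adjusted p = 3.29e-07). Scn4b (chr9:45138624-45154155), a sodium channel subunit rich in the striatum, had 157, 148, 138 and 177 CPM in R6/2, against 1484, 1324, 1417 and 1316 CPM in NCAR. It fell 8.95-fold (log2 fold change -3.16 ± 0.09, adjusted p = 2.65e-08), with the R6/2 libraries far below every NCAR library. Pde10a (chr17:8525187-8986648), the phosphodiesterase that breaks down cyclic nucleotides in these neurons, had 581, 589, 595 and 501 CPM in R6/2, against 2604, 2522, 2917 and 2982 CPM in NCAR (log2 fold change -2.28 ± 0.10, adjusted p = 3.29e-07). Rasgrp2, an exchange factor for Rap proteins, had 67.5, 64.9, 60.7 and 65.1 CPM in R6/2, against 299, 274, 236 and 259 CPM in NCAR (log2 fold change -2.04 ± 0.09, adjusted p = 3.29e-07). Ppp1r1b, which encodes DARPP-32, the phosphatase inhibitor through which dopamine acts, had 573, 557, 447 and 406 CPM in R6/2, against 1609, 1676, 1561 and 1745 CPM in NCAR (log2 fold change -1.75 ± 0.12, adjusted p = 5.48e-06). In these 5 genes no R6/2 library reached any NCAR library. Smaller falls were those of the transcription factor Foxp1 (-0.62 ± 0.16, adjusted p = 0.0151) and Gnal (-0.50 ± 0.12, adjusted p = 0.0116). Gnal is the G protein subunit that couples dopamine receptors to adenylyl cyclase. Neither was called without NCAR replicates 2 and 3 (adjusted p = 0.0998 for Foxp1 and 0.0552 for Gnal). The transcription factors Meis2 (-0.26 ± 0.15, adjusted p = 0.229) and Foxp2 (-0.19 ± 0.11, adjusted p = 0.221) were the members not called.

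Markers of the indirect pathway fell as a group, with 8 of 10 D2 neuron genes called lower and none higher (median -1.26). Penk (chr4:4133536-4138815), the enkephalin precursor, had 549, 636, 418 and 300.2 CPM in R6/2, against 1722, 2103, 2220.2 and 1971 CPM in NCAR. R6/2 replicate 4 was the lowest library and replicate 2 the highest of R6/2, and all 4 lay below the lowest NCAR library (log2 fold change -2.12 ± 0.20, adjusted p = 4.23e-05). Adora2a, the adenosine receptor of these cells, had 114, 116, 144 and 159.7 CPM in R6/2, against 388, 408, 395 and 433 CPM in NCAR (log2 fold change -1.62 ± 0.11, adjusted p = 6.56e-06). Drd2, the dopamine D2 receptor, had 90.0, 98.9, 96.7 and 61.3 CPM in R6/2, against 200.4, 221, 216 and 255 CPM in NCAR (log2 fold change -1.38 ± 0.15, adjusted p = 9.62e-05), with R6/2 replicate 4 the lowest library. The orphan receptor Gpr6 fell as well (-1.36 ± 0.11).

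Direct pathway markers did not move together: 4 of 9 were lower (44.4%), 1 was higher (11.1%), and the list median was -0.07. Beside these stand 16.3% lower and 11.8% higher of all genes. Summed over the 9 genes, the level was 709 to 877 CPM in R6/2 and 1142 to 1324 CPM in NCAR, without overlap. Drd1a, the dopamine D1 receptor, had 183, 181, 169 and 221 CPM in R6/2, against 558, 496, 430.4 and 501 CPM in NCAR (log2 fold change -1.40 ± 0.11, adjusted p = 1.3e-05). Chrm4, the M4 muscarinic receptor, had 60.8, 61.3, 53.8 and 65.4 CPM in R6/2, against 169.7, 177, 159 and 200.1 CPM in NCAR (log2 fold change -1.55 ± 0.10, adjusted p = 4.08e-06). Both fell about as far as Drd2. Pdyn, the dynorphin precursor, had 56.5, 57.3, 50.1 and 83.9 CPM in R6/2, against 81.2, 121, 107 and 109 CPM in NCAR. R6/2 replicate 4 lay above NCAR replicate 1 (log2 fold change -0.77 ± 0.16, adjusted p = 0.00657). Pdyn was not called without NCAR replicates 2 and 3 (adjusted p = 0.0837). Tac1, the substance P precursor, had 237, 222, 188 and 285 CPM in R6/2, against 282, 235, 195 and 195 CPM in NCAR, with overlapping groups and no call (log2 fold change 0.04 ± 0.15, adjusted p = 0.858, 95% interval -0.28 to 0.36). Isl1, a transcription factor of direct pathway neurons in development, was higher, at 43.4, 34.0, 36.5 and 37.3 CPM in R6/2, against 24.7, 23.8, 23.5 and 23.3 CPM in NCAR (log2 fold change 0.66 ± 0.10, adjusted p = 0.000989). Without NCAR replicates 2 and 3, 2 of the 9 were called lower.

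**Figure D1:**
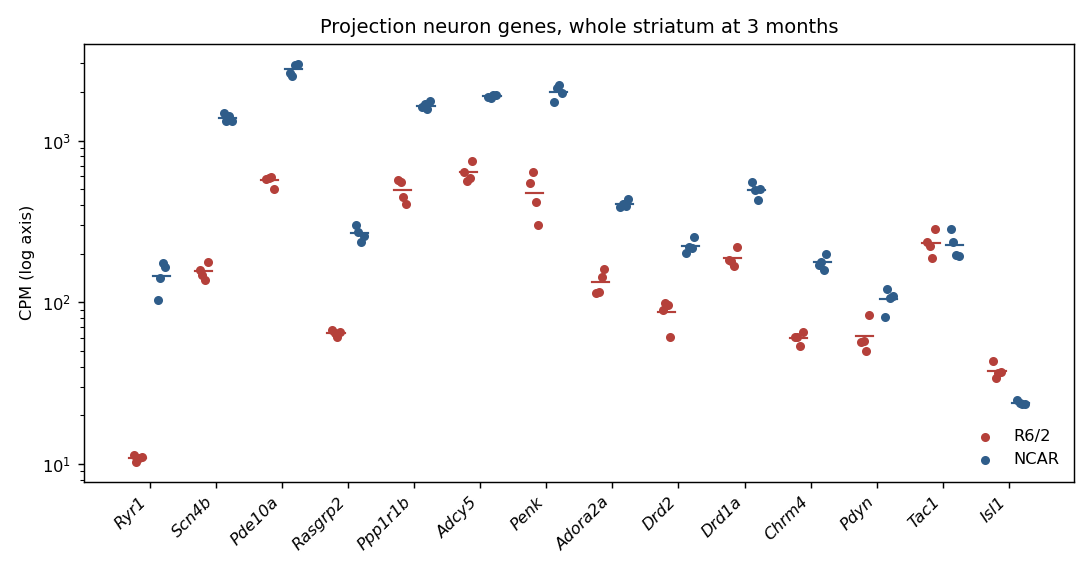
CPM on a log axis of 14 genes of medium spiny neurons in each of the 4 R6/2 libraries (red, left of each pair) and 4 NCAR libraries (blue, right), with lines at the group means. Ryr1 and Scn4b show the widest gaps, Tac1 overlaps between the genotypes, and Isl1 is higher in R6/2.

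The signalling genes behind these receptors fell in large part. Of 32 dopamine and cyclic AMP genes 21 were lower and 4 higher (median -0.62). Rgs4, which shortens G protein signals, had 279.6, 298, 250.3 and 265 CPM in R6/2, against 1079, 1112, 1095 and 1004 CPM in NCAR (log2 fold change -1.97 ± 0.08, adjusted p = 3.29e-07). Rgs9, its relative specific to the striatum among brain regions, had 291, 305, 276 and 220.4 CPM in R6/2, against 893, 882, 894 and 941 CPM in NCAR (log2 fold change -1.74 ± 0.10, adjusted p = 3.86e-06). Adcy5, the main adenylyl cyclase of the striatum, had 636, 564, 587 and 753 CPM in R6/2, against 1867, 1835, 1923 and 1909 CPM in NCAR (log2 fold change -1.58 ± 0.10, adjusted p = 4.86e-06). For each of the 3, every R6/2 library lay below every NCAR library.

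Calcium store and calmodulin genes were lower for 23 of 29 members, with none higher (median -0.79). Itpr1, the inositol trisphosphate receptor of the endoplasmic reticulum, had 1019, 869, 848 and 872 CPM in R6/2, against 2207, 2097, 2372 and 2019 CPM in NCAR (log2 fold change -1.27 ± 0.10, adjusted p = 1.3e-05). Camk4, a calcium-dependent kinase of the nucleus, had 374, 364, 225 and 238 CPM in R6/2, against 1295, 932, 1068 and 1027 CPM in NCAR (log2 fold change -1.88 ± 0.18, adjusted p = 4.2e-05). Among potassium and chloride channels 24 of 32 were lower and none higher (median -0.73). Kcnh4 (chr11:100740378-100760115), a voltage-gated potassium channel, had 5.70, 6.91, 6.16 and 5.12 CPM in R6/2, against 37.1, 37.3, 40.0 and 38.8 CPM in NCAR and fell 6.44-fold (log2 fold change -2.69 ± 0.13, adjusted p = 6.32e-07). Kcnq3, a subunit of the M current (-1.23 ± 0.12), and Kcnip2, a partner of A-type channels (-1.15 ± 0.11), fell 2.34-fold and 2.22-fold. Of 27 sodium and calcium channel genes 16 were lower and none higher (median -0.42), among them Cacng4, which also serves AMPA receptors (-1.45 ± 0.11), and Cacna2d3 (-0.97 ± 0.08).

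At synapses, 19 of 33 glutamate receptor and postsynaptic genes were lower and 1 higher (median -0.66). Grik2, a kainate receptor subunit (-1.05 ± 0.08), Grin2a, an NMDA receptor subunit (-0.95 ± 0.09), and the metabotropic receptors Grm3 (-0.97 ± 0.08) and Grm4 (-1.07 ± 0.09) fell by similar amounts. Of 14 endocannabinoid and opioid genes 8 were lower and 2 higher (median -0.63). Cnr1, the CB1 receptor, had 169.9, 176, 157 and 162 CPM in R6/2, against 648, 512, 742 and 679 CPM in NCAR (log2 fold change -1.95 ± 0.11, adjusted p = 3.15e-06), and the opioid receptors Oprd1 (-1.38 ± 0.10) and Oprk1 (-1.40 ± 0.13) fell too. Of 17 GABA receptor genes 4 were lower and 2 higher (median -0.06), near the 16.3% lower and 11.8% higher of all genes. Gabrd, the delta subunit of receptors outside synapses, had 54.3, 51.0, 54.5 and 72.2 CPM in R6/2, against 178, 164, 131 and 159 CPM in NCAR (log2 fold change -1.45 ± 0.13, adjusted p = 2.73e-05). The alpha 5 subunit Gabra5 had 46.4, 53.4, 50.9 and 46.9 CPM in R6/2, against 31.9, 25.9, 35.3 and 40.0 CPM in NCAR (log2 fold change 0.58 ± 0.13, adjusted p = 0.00791). The delta subunit was therefore lower and the alpha 5 subunit higher in every R6/2 library than in any NCAR library. Gabra5 was not called without NCAR replicates 2 and 3 (adjusted p = 0.0645).

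General neuronal genes stood apart from this. Of 23, 6 were lower (26.1%) and 5 higher (21.7%), beside 16.3% lower and 11.8% higher of all genes (median -0.21). Their summed level was 7486 to 10294 CPM in R6/2 and 9447 to 10768 CPM in NCAR, with overlap. Syp, a membrane protein of synaptic vesicles, was higher at 832, 944, 821 and 633 CPM in R6/2, against 451, 501, 413 and 578 CPM in NCAR (log2 fold change 0.73 ± 0.14, adjusted p = 0.00321), and so was Stmn2, which acts on microtubules in growing axons, at 128, 132, 122 and 109 CPM in R6/2, against 76.7, 73.0, 63.1 and 73.4 CPM in NCAR (log2 fold change 0.78 ± 0.09, adjusted p = 0.00022). Nefm, a neurofilament subunit (-1.08 ± 0.12), was lower. Gad1 (-0.44 ± 0.09) and Gad2 (-0.47 ± 0.11), the enzymes that make GABA, fell modestly. Gad2 was not called without NCAR replicates 2 and 3 (adjusted p = 0.0853). Striatal interneuron genes were lower for 13 of 17 members and higher for none (median -0.92), and without NCAR replicates 2 and 3 for 8. Chat, the enzyme that makes acetylcholine, had 11.0, 11.4, 14.5 and 11.6 CPM in R6/2, against 38.1, 31.6, 34.6 and 37.6 CPM in NCAR (log2 fold change -1.55 ± 0.12, adjusted p = 1.58e-05). Slc5a7, which brings choline into the same cells, had 23.3, 27.6, 20.7 and 16.5 CPM in R6/2, against 76.5, 64.1, 58.7 and 61.2 CPM in NCAR (log2 fold change -1.58 ± 0.15, adjusted p = 5.39e-05). Nos1, the neuronal nitric oxide synthase, had 21.1, 12.1, 15.6 and 12.4 CPM in R6/2, against 40.6, 39.8, 46.2 and 56.0 CPM in NCAR (log2 fold change -1.60 ± 0.18, adjusted p = 0.000154). No R6/2 library reached an NCAR library in any of these 3. The peptide Npy, of the interneurons that also make nitric oxide, was called (-0.85 ± 0.25, adjusted p = 0.029, not called without NCAR replicate 2, adjusted p = 0.0718), and Sst was not (-0.52 ± 0.20, adjusted p = 0.0705). None of 9 cortical and thalamic genes was called (median -0.61), while 3 were called lower without NCAR replicates 2 and 3. Their summed level was 68.2, 19.2, 16.0 and 68.6 CPM in the NCAR libraries, so that fit keeps the NCAR libraries where these genes were highest.

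**Figure D2:**
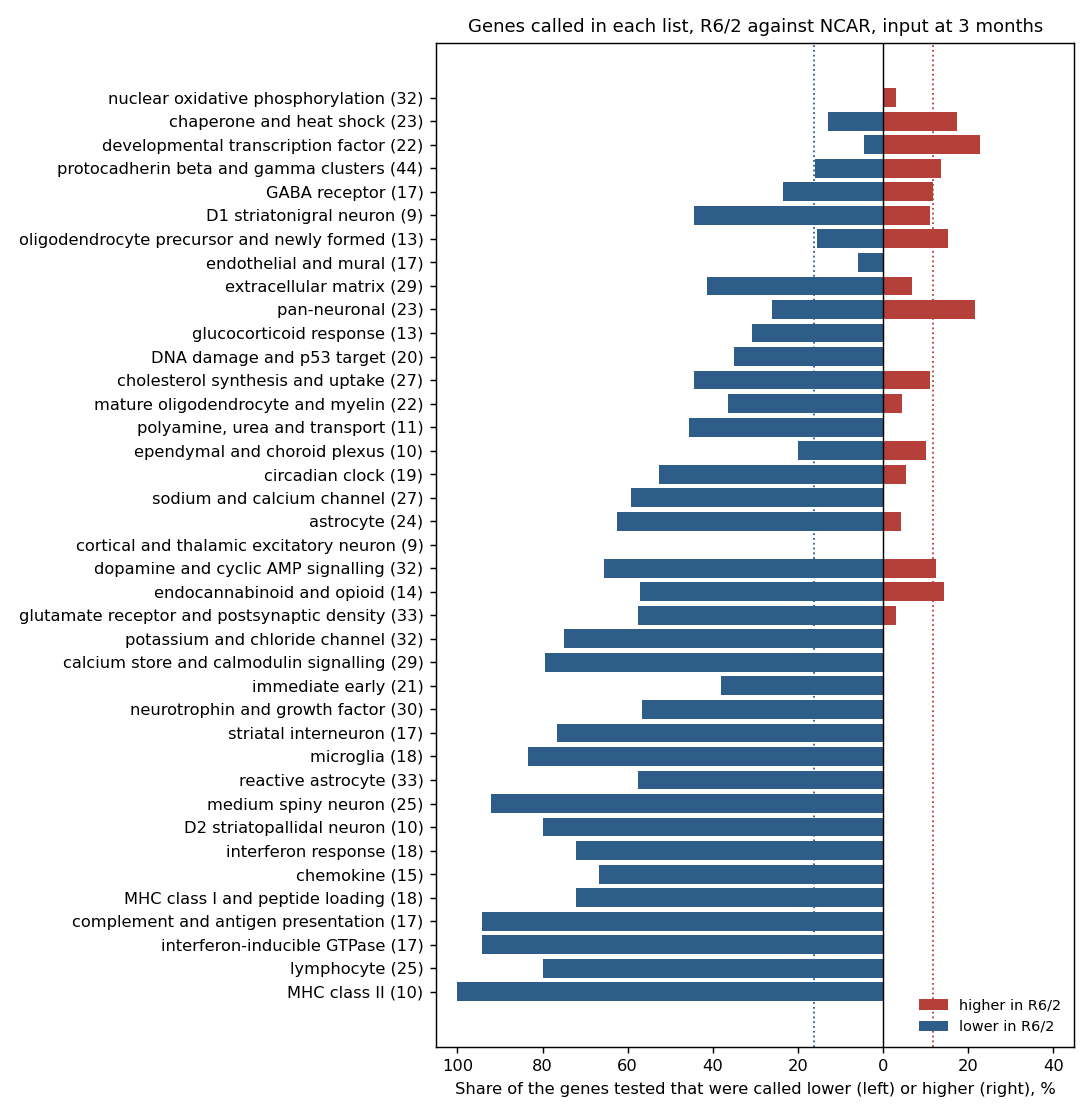
Share of the genes tested in each list (number in brackets) called lower (blue, to the left) or higher (red, to the right) in R6/2 than in NCAR, lists in order of their median log2 fold change. Dotted lines mark the shares over all genes, 16.3% lower and 11.8% higher, and most lists extend past the line on the left only.

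Astrocyte genes were lower for 15 of 24 members and higher for 1 (median -0.54). Their summed level was 5887, 6589, 6138 and 5301 CPM in R6/2, against 9002, 9069.7, 8821 and 10572 CPM in NCAR, with no overlap. Slc1a2, the main glutamate transporter, had 1277, 1489, 1309 and 1005 CPM in R6/2, against 2292, 1945, 1857 and 2593 CPM in NCAR (log2 fold change -0.78 ± 0.14, adjusted p = 0.003). Aqp4, the water channel of astrocyte endfeet, had 112, 120.4, 131 and 94.2 CPM in R6/2, against 168, 269.8, 251 and 226 CPM in NCAR (log2 fold change -0.99 ± 0.15, adjusted p = 0.000886). S100b, a calcium-binding protein, went the other way at 229, 237, 269.8 and 214 CPM in R6/2, against 156, 157, 117 and 148 CPM in NCAR (log2 fold change 0.72 ± 0.11, adjusted p = 0.00101). Gfap, the filament protein that rises in reactive astrocytes, had 129.9, 127, 113 and 113 CPM in R6/2, against 192, 637, 815 and 438 CPM in NCAR (log2 fold change -1.92 ± 0.35, adjusted p = 0.00254). Its R6/2 libraries were close together, while the NCAR libraries spread widely, with NCAR replicate 1 the lowest and replicate 3 the highest. Without NCAR replicates 2 and 3 its log2 fold change was -1.27, and 12 of 24 astrocyte genes were called lower.

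Reactive astrocyte genes were lower for 19 of 33 members, none higher (median -1.24), and the list holds interferon-responsive genes that are counted with the immune genes below. The count was 8 without NCAR replicates 2 and 3. Cd44, an adhesion receptor, had 3.56, 4.00, 2.19 and 2.95 CPM in R6/2, against 7.53, 22.8, 26.5 and 12.8 CPM in NCAR (log2 fold change -2.32 ± 0.36, adjusted p = 0.0011).

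Myelin genes were lower for 8 of 22 and higher for 1 (median -0.30). Mal, a lipid raft protein of myelin, had 204, 224, 173 and 202 CPM in R6/2, against 399, 435, 389.7 and 423 CPM in NCAR (log2 fold change -1.04 ± 0.09, adjusted p = 2.73e-05). Ugt8a, which makes the main glycolipid of myelin (-1.02 ± 0.12), Cldn11, of its tight junctions (-1.02 ± 0.10), and Mobp (-0.82 ± 0.08) were lower as well. Oligodendrocyte precursor genes had 2 members lower and 2 higher of 13 (15.4% each, median -0.08), near the 16.3% lower and 11.8% higher of all genes. None was called without NCAR replicates 2 and 3. Endothelial and mural genes had 1 of 17 lower (5.9%, beside 16.3% of all genes) and a median of -0.18. The gene was Slco1a4, a transporter of the blood-brain barrier (-0.35 ± 0.09). It was not called without NCAR replicates 2 and 3 (adjusted p = 0.162). Ependymal and choroid plexus genes had 1 higher and 2 lower of 10 (median -0.39), also near the 11.8% higher and 16.3% lower of all genes. Their summed level was 46.9 to 56.7 CPM in R6/2 and 53.1 to 81.4 CPM in NCAR. Alas2, of haem synthesis in red cells, was lower (-1.08 ± 0.31, not called without NCAR replicate 2, adjusted p = 0.0723).

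Immune transcripts were lower in R6/2. Of 126 genes tested in 8 immune lists, 101 were called lower and none higher (median -2.23), and 39 of the 100 lowest ranked genes (by fold change, among genes that averaged at least 5 CPM with no overlap) belonged to these lists. MHC class II genes present peptides on antigen-presenting cells, interferon-inducible GTPases act against pathogens inside cells, and the lymphocyte list holds surface proteins of T and B cells. The lists of MHC, lymphocyte, GTPase and chemokine genes were written after immune genes were seen among the lowest. The 101 of 126 and the 39 of 100 therefore rest in part on that choice and are no separate support. The other lists were chosen at the start, but with earlier results of these data known, so they are no separate support either. In them 13 of 18 interferon response genes were called lower, beside 16.3% of all genes. The same held for 16 of 17 complement and antigen presentation genes and 15 of 18 microglia genes. Summed over the 126 genes, the R6/2 libraries held 2851, 2338, 2246 and 2689.7 CPM, against 4619, 11254, 14549.5 and 6466 CPM in the NCAR libraries.

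Spread was wide in NCAR: the median standard deviation (SD) of log2 (CPM + 1) over the 126 genes was 0.321 in R6/2 and 0.894 in NCAR, beside 0.194 in R6/2 and 0.157 in NCAR over all genes tested. NCAR replicate 3 was the highest NCAR library for 105 of the genes and NCAR replicate 1 the lowest for 109. The labels give no difference between the NCAR libraries.

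MHC class II genes were all called lower, 10 of 10 (median -3.87). Their summed level was 103, 57.2, 31.4 and 128 CPM in R6/2, against 507, 1400.4, 2286 and 636 CPM in NCAR. The highest R6/2 library, replicate 4, lay below the lowest NCAR library, replicate 1. Cd74, the invariant chain that guards the peptide groove, had 38.2, 19.8, 9.58 and 53.1 CPM in R6/2, against 232, 648, 1088 and 292 CPM in NCAR (log2 fold change -4.23 ± 0.56, adjusted p = 0.000384). H2-Ab1, a chain of the class II molecule, had 23.3, 9.23, 3.31 and 15.8 CPM in R6/2, against 109.9, 330.1, 496 and 137 CPM in NCAR (log2 fold change -4.44 ± 0.59, adjusted p = 0.000417). Ciita, the coactivator that switches on class II genes, had 1.64, 0.246, 0.201 and 1.71 CPM in R6/2, against 4.07, 22.5, 33.7 and 9.33 CPM in NCAR (log2 fold change -4.39 ± 0.82, adjusted p = 0.00307). H2-Aa (-4.12 ± 0.64) and H2-Eb1 (-4.36 ± 0.72), further class II chains, and H2-DMb1 (-3.18 ± 0.67), part of the peptide loading factor, were lower too. H2-DMb1 lost its call without NCAR replicates 2 and 3 (adjusted p = 0.0857). Without NCAR replicates 2 and 3, 7 of the 10 were called lower with a median of -3.02.

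Class II promoters are known for a fixed set of boxes that Ciita works through, of which the CCAAT box is one. The letters CCAAT, on either strand, were found in the 300-base windows (250 bases before the start and 50 after) of class II genes in 7 of 8 cases, with at least 1 match for each of the 7 genes that have a window in the RefSeq table, and in 37.4% of all 32851 windows. Windows of 3 of them are shown in the direction of the gene to let the boxes be compared (GRCm38.p6, RefSeq), with CCAAT or ATTGG in capitals. They are at chr17:34305617-34305916, plus strand (H2-Eb1), at chr17:34287774-34288073, minus strand (H2-Aa), and at chr17:34152941-34153240, plus strand (H2-DMb1).
H2-Eb1: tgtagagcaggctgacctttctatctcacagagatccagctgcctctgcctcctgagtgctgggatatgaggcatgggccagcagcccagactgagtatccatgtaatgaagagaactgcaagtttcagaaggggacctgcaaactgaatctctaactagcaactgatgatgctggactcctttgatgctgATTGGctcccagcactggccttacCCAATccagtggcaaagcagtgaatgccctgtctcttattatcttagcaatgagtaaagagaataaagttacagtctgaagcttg
H2-Aa: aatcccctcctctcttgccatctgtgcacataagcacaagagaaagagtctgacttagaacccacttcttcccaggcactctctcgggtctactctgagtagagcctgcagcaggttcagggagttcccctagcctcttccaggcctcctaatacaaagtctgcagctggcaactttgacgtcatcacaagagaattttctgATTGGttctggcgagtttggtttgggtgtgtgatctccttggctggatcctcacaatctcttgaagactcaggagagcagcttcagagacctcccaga
H2-DMb1: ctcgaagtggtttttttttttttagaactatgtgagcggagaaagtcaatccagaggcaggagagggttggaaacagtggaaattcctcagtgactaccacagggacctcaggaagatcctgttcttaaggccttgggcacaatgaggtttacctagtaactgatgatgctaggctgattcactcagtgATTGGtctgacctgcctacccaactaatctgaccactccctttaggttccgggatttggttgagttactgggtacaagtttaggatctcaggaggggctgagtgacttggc
Counted from the transcription start, the ATTGG copy lay at -59 to -55 in H2-Eb1, at -48 to -44 in H2-Aa and at -61 to -57 in H2-DMb1, and all 3 genes were lower in R6/2.

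Interferon-inducible GTPases were lower for 16 of 17 members (median -3.12), and 13 were called without NCAR replicates 2 and 3. Gbp2b had 0.0356, 0.632, 0.201 and 0.275 CPM in R6/2, against 4.25, 24.2, 22.0 and 2.58 CPM in NCAR (log2 fold change -5.44 ± 0.90, adjusted p = 0.0015). Tgtp2, of the family that guards against parasites in vacuoles, had 3.60, 1.33, 1.55 and 1.44 CPM in R6/2, against 12.6, 60.0, 70.6 and 19.2 CPM in NCAR (log2 fold change -4.13 ± 0.53, adjusted p = 0.000315), and Iigp1, of the same family, fell too (-4.03 ± 0.53). In each the NCAR libraries spread more widely than the R6/2 libraries. Interferon response genes were lower for 13 of 18 (median -1.42), and without NCAR replicates 2 and 3 for 4. Ifit3, which acts against viral RNA, had 21.0, 19.1, 20.6 and 18.8 CPM in R6/2, against 33.3, 99.9, 95.8 and 32.4 CPM in NCAR (log2 fold change -1.51 ± 0.35, adjusted p = 0.00907). Of 15 chemokine genes 10 were lower (median -1.55), and without NCAR replicates 2 and 3 3. Cxcl10, which draws T cells, had 2.74, 0.737, 0.518 and 1.22 CPM in R6/2, against 3.21, 50.5, 51.5 and 11.9 CPM in NCAR (log2 fold change -4.05 ± 0.82, adjusted p = 0.00493). R6/2 replicates 1 and 4 held more of it than replicates 2 and 3, and all lay below NCAR.

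The interferon-stimulated response element, searched as GAAANNGAAA on both strands, was present in 10 of 11 windows of 10 GTPase genes, in 9 of 17 windows of 14 interferon response genes and in 3.44% of all windows. It is shown in capitals, in the direction of the gene, for Cxcl10 (chr5:92348840-92349139, minus strand) and Gbp2b (chr3:142594597-142594896, plus strand), a chemokine and a GTPase that both fell.
Cxcl10: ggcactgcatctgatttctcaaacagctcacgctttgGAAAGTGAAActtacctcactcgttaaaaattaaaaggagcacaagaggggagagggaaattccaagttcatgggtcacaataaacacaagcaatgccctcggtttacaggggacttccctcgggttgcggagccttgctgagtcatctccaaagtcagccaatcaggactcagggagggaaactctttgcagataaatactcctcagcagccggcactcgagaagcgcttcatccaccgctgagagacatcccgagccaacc
Gbp2b: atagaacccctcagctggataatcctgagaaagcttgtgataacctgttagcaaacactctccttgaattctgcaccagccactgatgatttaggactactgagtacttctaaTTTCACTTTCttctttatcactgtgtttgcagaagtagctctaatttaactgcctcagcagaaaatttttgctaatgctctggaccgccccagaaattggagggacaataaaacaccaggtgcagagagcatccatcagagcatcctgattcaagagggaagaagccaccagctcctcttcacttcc
Neither motif is a measured binding site here.

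MHC class I and peptide loading genes were lower for 13 of 18 (median -1.82) and, without NCAR replicates 2 and 3, for 7. H2-D1, a class I heavy chain, had 47.7, 12.1, 8.66 and 67.0 CPM in R6/2, against 164, 254, 313 and 177 CPM in NCAR (log2 fold change -3.19 ± 0.56, adjusted p = 0.00231). B2m, the light chain of class I, had 429, 301, 246 and 180.4 CPM in R6/2, against 615, 1829, 2391 and 1046 CPM in NCAR (log2 fold change -2.23 ± 0.38, adjusted p = 0.00192). Complement and antigen presentation genes, a list that shares members with these, were lower for 16 of 17 (median -2.27). C4b, a complement component, had 73.0, 62.7, 45.8 and 112 CPM in R6/2, against 185, 462, 504 and 276 CPM in NCAR (log2 fold change -2.25 ± 0.32, adjusted p = 0.000681), and Cfb, which starts the alternative pathway, 0.855, 0.351, 0.345 and 1.42 CPM in R6/2, against 2.23, 30.8, 48.3 and 7.58 CPM in NCAR (log2 fold change -4.33 ± 0.85, adjusted p = 0.00421). Cd74, B2m, H2-D1, C4b and Cfb all had NCAR replicate 1 as the NCAR library nearest to R6/2.

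Lymphocyte genes were lower for 20 of 25 members (median -3.74), from few reads. Cd3g, of the T cell receptor complex, had 0, 0, 1 and 19 reads in R6/2, against 9, 127, 335 and 68 reads in NCAR. Cd79a, of the B cell receptor complex, had 0, 4, 5 and 28 reads in R6/2, against 19, 80, 334 and 63 reads in NCAR. Cd8a, a coreceptor of cytotoxic T cells, had 0, 18, 2 and 4 reads in R6/2, against 23, 66, 116 and 66 reads in NCAR. The list's summed level was 20.4, 19.5, 15.0 and 29.7 CPM in R6/2, against 34.5, 168, 344 and 104 CPM in NCAR. It held 4 calls without NCAR replicates 2 and 3.

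Microglia genes were lower for 15 of 18 and higher for none (median -0.99), and without NCAR replicates 2 and 3 for 5. Ctss, a protease of lysosomes, had 149, 113, 115 and 148 CPM in R6/2, against 219, 487, 693 and 321 CPM in NCAR (log2 fold change -1.59 ± 0.29, adjusted p = 0.00256). C1qb, of the first complement component, had 55.6, 57.6, 49.1 and 46.7 CPM in R6/2, against 77.4, 202, 261 and 129 CPM in NCAR (log2 fold change -1.54 ± 0.30, adjusted p = 0.00384), and Cx3cr1, the fractalkine receptor of microglia, 67.5, 58.5, 60.0 and 75.4 CPM in R6/2, against 85.3, 109, 144 and 111 CPM in NCAR (log2 fold change -0.76 ± 0.15, adjusted p = 0.00373). P2ry12, a receptor of resting microglia, had the smallest fall of those called (-0.31 ± 0.09, adjusted p = 0.0316, not called without NCAR replicate 2, adjusted p = 0.082). The summed microglia level was 837, 724, 729 and 888 CPM in R6/2, against 1027, 2113, 2797 and 1552 CPM in NCAR. The part of immune cells in the falls of astrocyte and reactive astrocyte genes was not tested.

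**Figure D3:**
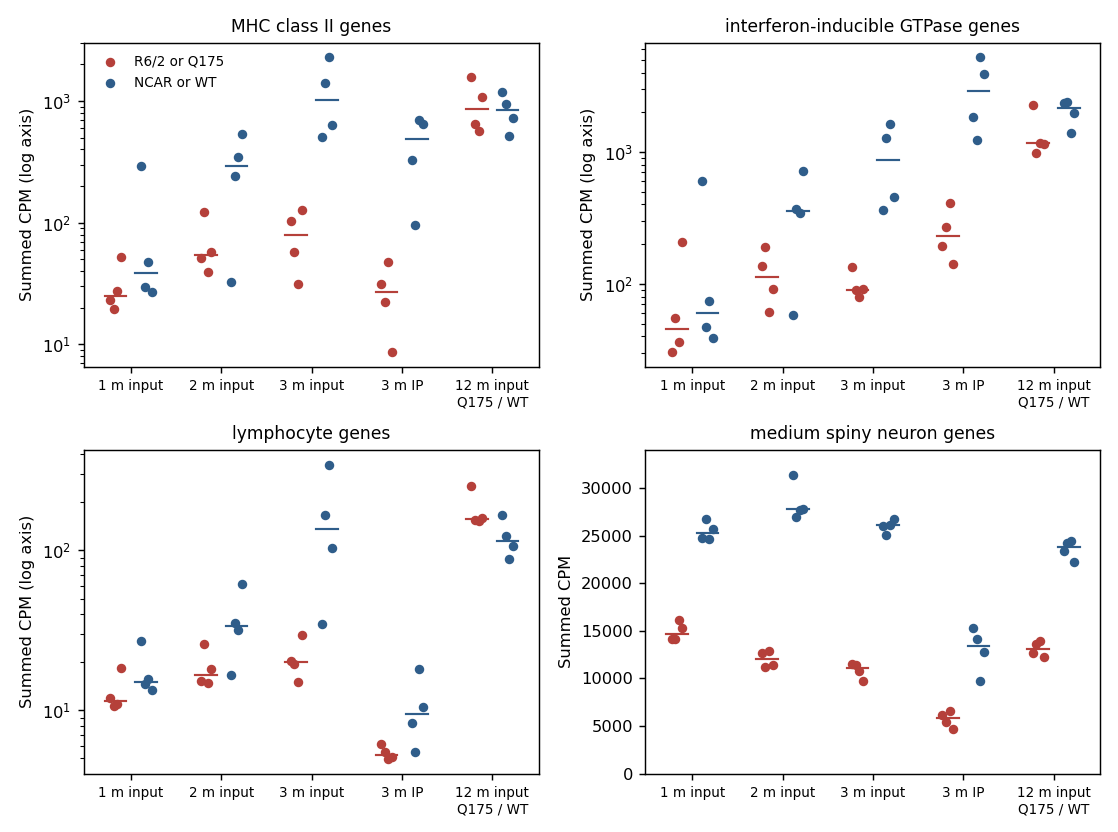
Summed CPM of the genes of 4 lists in each library (points) with the group median (line), R6/2 or Q175 in red left of NCAR or WT in blue, for input at 1, 2 and 3 months, IP at 3 months and input at 12 months. Immune sums are on a log axis, and the highest MHC class II sum (2286 CPM) is of 1 NCAR input library at 3 months. The other libraries of that group lie below the Q175 maximum (1575 CPM). Medium spiny neuron sums lie lower in R6/2 or Q175 in every pair.

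Genes switched on within minutes of neuronal activity were lower for 8 of 21 members and higher for none (median -0.83). Egr2 (chr10:67534469-67542188), a zinc finger transcription factor of this class, had 0.606, 1.30, 1.78 and 0.925 CPM in R6/2, against 10.9, 4.82, 17.7 and 10.0 CPM in NCAR (log2 fold change -3.19 ± 0.42, adjusted p = 0.000372). Egr3, its relative, had 57.6, 51.9, 46.4 and 37.8 CPM in R6/2, against 104, 124, 150.0 and 151 CPM in NCAR (log2 fold change -1.45 ± 0.15, adjusted p = 9.25e-05). Homer1, which has a short activity-induced form and links receptors to calcium stores, had 192, 199.8, 186 and 181 CPM in R6/2, against 449, 396, 415 and 464 CPM in NCAR (log2 fold change -1.18 ± 0.08, adjusted p = 5.48e-06). Junb, an AP-1 subunit, had 42.2, 47.4, 42.8 and 46.8 CPM in R6/2, against 88.2, 84.3, 138 and 95.6 CPM in NCAR (log2 fold change -1.15 ± 0.14, adjusted p = 0.000251). In these 4 genes R6/2 lay below all NCAR libraries. Arc, which acts on AMPA receptor recycling (-0.84 ± 0.26, not called without R6/2 replicate 1, adjusted p = 0.0792), was also lower, whereas Fos (-0.35 ± 0.39, adjusted p = 0.539) and Fosb (-0.02 ± 0.24, adjusted p = 0.963) were not called. The serum response element is a known element of this gene class, and 4 of the 28 windows of 17 members held it, beside 1.63% of all windows. All 4 were windows of Egr2, 1 gene of the 17, and some of them overlap and hold the same copy. In the window shown the element lay at -72 to -63 from the transcription start and is in capitals below (chr10:67537619-67537918, plus strand, 1 of the Egr2 windows in the RefSeq table).
Egr2: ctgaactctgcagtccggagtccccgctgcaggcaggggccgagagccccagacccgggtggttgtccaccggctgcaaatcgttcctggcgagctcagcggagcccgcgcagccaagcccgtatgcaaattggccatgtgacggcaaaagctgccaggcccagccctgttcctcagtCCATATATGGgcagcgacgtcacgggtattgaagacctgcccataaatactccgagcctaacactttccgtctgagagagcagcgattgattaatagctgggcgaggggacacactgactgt
A core of the cyclic AMP response element, TGACG on either strand and thus also counted within the full element, was in 16 of the 28 windows and in 20.8% of all windows.

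Circadian clock genes were lower for 10 of 19 and higher for 1 (median -0.42). Npas2, a clock transcription factor of the forebrain, had 34.2, 34.9, 30.8 and 24.0 CPM in R6/2, against 81.1, 90.4, 100.1 and 101 CPM in NCAR (log2 fold change -1.60 ± 0.13, adjusted p = 1.75e-05). Nr1d1, a repressor of the clock loop, had 34.3, 28.5, 26.5 and 20.6 CPM in R6/2, against 73.5, 73.8, 70.9 and 91.9 CPM in NCAR (log2 fold change -1.51 ± 0.15, adjusted p = 6.33e-05), and Dbp, an output transcription factor, 125, 119.8, 122 and 127 CPM in R6/2, against 303, 329, 241 and 278 CPM in NCAR (log2 fold change -1.21 ± 0.10, adjusted p = 1.72e-05). Cry1, a repressor of the same loop, was higher (0.62 ± 0.13, not called without NCAR replicates 2 and 3, adjusted p = 0.0781). The labels used here give no hour of dissection.

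Growth factor and peptide genes were lower for 17 of 30 and higher for none (median -0.84). Igfbp5, which binds insulin-like growth factors, had 35.5, 54.4, 46.3 and 36.2 CPM in R6/2, against 89.5, 183, 125 and 160.1 CPM in NCAR (log2 fold change -1.66 ± 0.21, adjusted p = 0.000296), Igfbp4, of the same family, fell as well (-1.39 ± 0.12), and so did Ntrk3, the receptor of neurotrophin-3 (-0.73 ± 0.09), and Gfra2, a receptor of neurturin (-1.21 ± 0.25). Bdnf was low, at 16, 10, 22 and 38 reads in R6/2, against 73, 11, 23 and 86 reads in NCAR, and was not called (-1.09 ± 0.63, adjusted p = 0.216). Crh, a stress peptide, had 0, 0, 4 and 2 reads in R6/2, against 67, 37, 56 and 101 reads in NCAR (adjusted p = 0.000934).

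Cholesterol genes were lower for 12 of 27 and higher for 3 (median -0.30). Msmo1, a demethylase of the synthesis route, had 35.5, 43.7, 41.9 and 40.3 CPM in R6/2, against 91.0, 80.6, 82.8 and 82.9 CPM in NCAR (log2 fold change -1.07 ± 0.09, adjusted p = 2.38e-05). Srebf2, the transcription factor of the route (-0.81 ± 0.11), fell as well. Abca1, which exports cholesterol, was higher (0.58 ± 0.11).

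Nuclear genes of oxidative phosphorylation had 1 of 32 called, beside 28.1% of all genes, with a list median of 0.18. The gene called was Sdha, a subunit of complex II. It was higher at 388, 443, 431 and 483 CPM in R6/2, against 315, 317, 311 and 339 CPM in NCAR (log2 fold change 0.44 ± 0.08, adjusted p = 0.00379). Sdha lost its call without NCAR replicates 2 and 3 (adjusted p = 0.0568). Chaperone genes had 4 higher and 3 lower of 23, near the 11.8% higher and 16.3% lower of all genes (median 0.16). Dnaja1, a partner of Hsp70, was higher (0.50 ± 0.11) and Hspb8, a small heat shock protein, lower (-1.09 ± 0.12). Dnaja1 was not called without NCAR replicates 2 and 3 (adjusted p = 0.116). DNA damage and p53 target genes were lower for 7 of 20 (35%, beside 16.3% of all genes, median -0.29). Among them were Gadd45g, which is induced by stress (-1.05 ± 0.21), and Bbc3, which promotes cell death (-0.95 ± 0.19). Neither was called without NCAR replicates 2 and 3 (adjusted p = 0.0676 for Gadd45g and 0.0546 for Bbc3). Glucocorticoid-responsive genes were lower for 4 of 13 (median -0.22), among them Mertk, a receptor for the uptake of dead cells (-0.45 ± 0.12, not called without R6/2 replicate 3, NCAR replicate 2 or NCAR replicate 4, adjusted p up to 0.0626). Of 11 polyamine, urea and transport genes 5 were lower (median -0.38). They included Arg2, the arginase of mitochondria (-1.67 ± 0.17), and Slc14a1, a urea transporter (-0.87 ± 0.21). Slc14a1 was not called without NCAR replicates 2 and 3 (adjusted p = 0.145).

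Matrix genes were lower for 12 of 29 and higher for 2 (median -0.19). Abi3bp, a matrix protein, had 0.285, 1.40, 0.518 and 0.256 CPM in R6/2, against 13.8, 14.5, 16.1 and 10.7 CPM in NCAR (log2 fold change -4.80 ± 0.47, adjusted p = 5.55e-05), which placed it among the 15 lowest ranked genes. Col19a1 (-1.09 ± 0.17) and Adamts3, a protease that trims procollagen (-1.22 ± 0.11), were lower as well. Of 44 clustered protocadherins, adhesion molecules that give neurons their identity, 13.6% were called higher and 15.9% lower. These shares are near the 11.8% higher and 16.3% lower of all genes. By cluster, 6 of 22 beta genes were higher and none lower (median 0.16), and of 22 gamma genes none was higher and 7 were lower (median -0.38). No test of the difference between the clusters was made. Pcdhb3 (0.88 ± 0.23), Pcdhb9 (0.82 ± 0.14) and Pcdhb12 (0.75 ± 0.17) were higher, and Pcdhga7 (-0.69 ± 0.16) and Pcdhgb5 (-0.70 ± 0.15) lower. Pcdhb3 and Pcdhb12 were not called without NCAR replicates 2 and 3 (adjusted p = 0.0619 and 0.0520). Gamma genes share their constant exons and beta genes are near copies of each other, so counts within a cluster may be split between members. Without NCAR replicates 2 and 3 the 44 genes held 1 higher and 5 lower calls.

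Developmental transcription factors were mostly not called, with 5 of 22 higher (22.7%) and 1 lower (4.5%, median 0.03). Beside these stand 11.8% higher and 16.3% lower of all genes. Pou4f1, a factor of sensory and habenular neurons, had 0.749, 2.60, 3.68 and 2.34 CPM in R6/2, against 0.144, 0, 0 and 0.191 CPM in NCAR (log2 fold change 5.80 ± 1.17, adjusted p = 0.00477). Onecut1, of motor and liver development, had 20, 23, 37 and 22 reads in R6/2, against 0, 0, 2 and 8 reads in NCAR (adjusted p = 0.0177, not called without R6/2 replicate 3, adjusted p = 0.0589). Wt1, of kidney and gonad development, had 3.07, 3.33, 5.24 and 2.68 CPM in R6/2, against 0.469, 0.149, 0.443 and 0.350 CPM in NCAR (log2 fold change 3.39 ± 0.43, adjusted p = 0.000305). These 3 are near the lower end of what was tested, while Sox11, of immature neurons, had 79.7, 86.3, 61.7 and 65.4 CPM in R6/2, against 43.9, 39.8, 46.4 and 38.4 CPM in NCAR (log2 fold change 0.79 ± 0.12, adjusted p = 0.00098).

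Among genes that averaged at least 5 CPM without overlap, 3122 in number, Npsr1, the neuropeptide S receptor, had the highest fold change, at 8.23, 9.93, 13.8 and 5.00 CPM in R6/2, against 0.865, 0.224, 2.45 and 0.637 CPM in NCAR (log2 fold change 3.53 ± 0.60, adjusted p = 0.00187). AW551984, next in order, had 14.0, 18.5, 17.7 and 19.8 CPM in R6/2, against 4.72, 2.88, 3.54 and 3.57 CPM in NCAR (log2 fold change 2.26 ± 0.19, adjusted p = 1.94e-05). Slc5a5, the iodide transporter known from the thyroid, had 7.24, 20.0, 13.3 and 11.4 CPM in R6/2, against 4.11, 1.57, 2.15 and 4.24 CPM in NCAR (log2 fold change 2.13 ± 0.37, adjusted p = 0.00219). Pcdh20, a protocadherin outside the clusters, had 63.2, 40.6, 47.9 and 64.1 CPM in R6/2, against 15.4, 10.8, 14.5 and 11.1 CPM in NCAR (log2 fold change 2.05 ± 0.18, adjusted p = 2.34e-05). By the choice of the ranked genes, their R6/2 libraries all lie above the NCAR libraries. Macrod1, which removes ADP-ribose (1.91 ± 0.18), Sfmbt2, a polycomb protein (1.87 ± 0.15), Klhl14 (1.72 ± 0.23), Tnnt2, the troponin T of heart muscle (1.69 ± 0.27), and Dleu7 (1.61 ± 0.26) came next. Col9a2, a cartilage collagen (1.53 ± 0.16), Galnt9, a glycosyltransferase (1.53 ± 0.19), Slitrk6, a synaptic adhesion protein (1.51 ± 0.20), Kif7, a kinesin of the primary cilium (1.47 ± 0.19), Fam196b (1.41 ± 0.19) and Echdc2 (1.41 ± 0.16) completed the 15 highest.

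Since several immune lists were written after immune genes were seen among the lowest, the share of the lowest genes in them was partly set in advance. Of the 15 lowest, 11 were in the immune lists. Among them were Pou2af1, a coactivator of B cells (-5.60 ± 1.33), Gbp8 (-5.09 ± 0.87) and Il2rb, an interleukin receptor chain (-4.86 ± 0.84). The other 4 of the 15 were Ly6c2, a surface protein of monocytes and T cells (-6.71 ± 1.03), Abi3bp, Abhd11os and Gpr139. Pou2af1 was not called without NCAR replicates 2 and 3 (adjusted p = 0.126). Abhd11os, a non-coding transcript of the striatum, had 0.784, 0.632, 0.316 and 0.512 CPM in R6/2, against 14.4, 14.4, 12.8 and 12.7 CPM in NCAR (log2 fold change -4.65 ± 0.29, adjusted p = 4.08e-06). Gpr139, an orphan receptor, had 1.03, 0.702, 0.662 and 0.354 CPM in R6/2, against 9.91, 10.7, 13.1 and 14.9 CPM in NCAR (log2 fold change -4.21 ± 0.32, adjusted p = 1.3e-05). These 2 were low in all 4 R6/2 libraries and tight among the NCAR libraries, whereas Ly6c2 had 0.0356, 0.0351, 0.115 and 0.649 CPM in R6/2, against 2.09, 22.3, 46.3 and 8.25 CPM in NCAR.

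At 2 months 2455 of 15358 genes were called (16.0%), and at 1 month 1910 of 15490 (12.3%). These comparisons use other libraries than the 3-month one. The count at 2 months was 1616 without R6/2 replicate 1. At 1 month it was 1093 without R6/2 replicate 2, and 1100, 1232 and 1106 without NCAR replicate 2, 3 or 4. Of the genes called at 3 months 45.9% were also called at 2 months, and of those called at 2 months 80.2% at 3 months, all 1963 in the same direction. With 1 month the shared calls were 30.4% of the 3-month and 67.3% of the 1-month calls, 1283 in the same direction and 4 in the opposite one. Among medium spiny neuron genes the test called lower 21 of 25 at 2 months (median -1.21, set beside 9.66% of all genes lower and 6.33% higher) and 23 of 25 at 1 month (median -0.72, beside 7.74% of all genes lower and 4.59% higher). Their summed level was 14127 to 16118 CPM in R6/2 and 24617 to 26749 CPM in NCAR at 1 month, and 11161 to 12867 CPM in R6/2 and 26975 to 31354 CPM in NCAR at 2 months. So the groups did not overlap at any of the 3 ages.

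Scn4b had 683, 593, 831 and 657 CPM in R6/2, against 1714, 1972, 1883 and 2030.4 CPM in NCAR at 1 month (log2 fold change -1.47 ± 0.10, adjusted p = 2.37e-05). At 2 months it had 206, 324, 226 and 291 CPM in R6/2, against 1587, 2133, 1671 and 2118 CPM in NCAR (log2 fold change -2.86 ± 0.16, adjusted p = 1.6e-05). Its fall was thus -1.47 ± 0.10, -2.86 ± 0.16 and -3.16 ± 0.09 at 1, 2 and 3 months on the log2 scale, and for Penk the values were -1.17 ± 0.09, -1.89 ± 0.31 and -2.12 ± 0.20. The list median was not lowest at 3 months for calcium store genes, at -0.47, -0.88 and -0.79 in order of age. Since the 1-month libraries have a run label of their own, run and age are confounded there and cannot be told apart. Between 2 and 3 months no gene of 15570 had an adjusted p under 0.05 for the change of the genotype difference with age (limma), and 781 had an unadjusted p under 0.05. Neither R6/2 nor NCAR alone had a call between these ages, with 611 and 2151 genes at an unadjusted p under 0.05. By chance alone a share of about 0.05 of the 15570 genes would fall under that threshold in each test. Immediate early genes were lower for 14 of 21 at 2 months (median -1.44) and for 4 of 21 at 1 month (median -0.25).

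**Figure D4:**
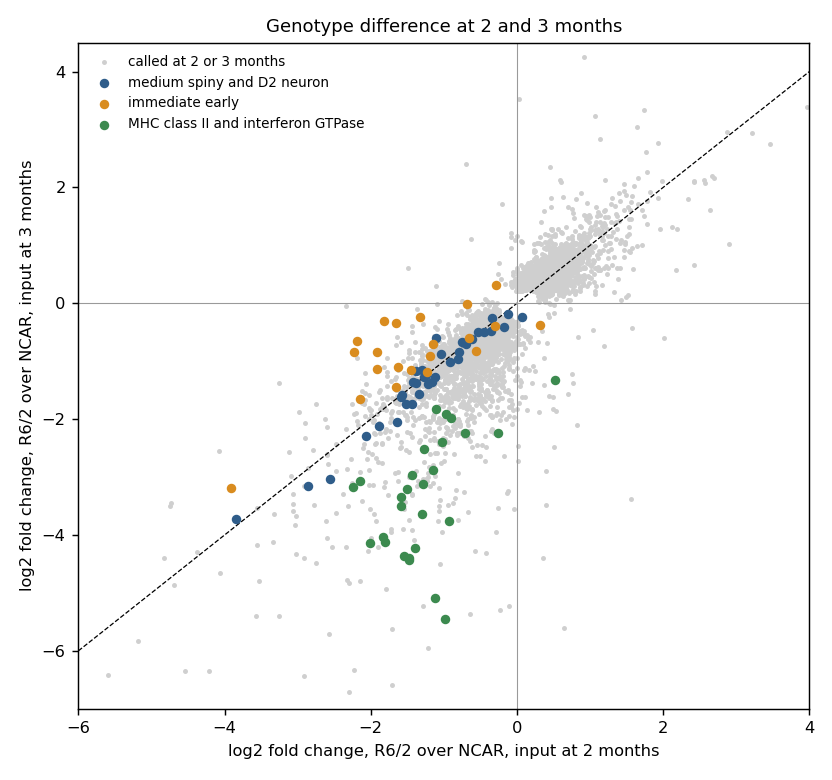
log2 fold change of R6/2 over NCAR in input at 3 months (vertical) against 2 months (horizontal) for genes called at either age (grey), with genes of 5 lists in colour and the dashed line at equal change. Medium spiny and D2 neuron genes lie near the line, and MHC class II and interferon GTPase genes lie below it.

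Of the 8 immune lists together, 7 of 118 genes tested were called lower at 2 months (median -0.80, beside 9.66% of all genes) and 4 of 108 at 1 month (median -0.43, beside 7.74%), and none higher. These counts are not above the share over all genes. The MHC class II sum was 50.9, 122, 39.3 and 57.2 CPM in R6/2, against 32.9, 244, 345 and 541 CPM in NCAR, at 2 months. NCAR replicate 1 at 2 months was the lowest of the 8, so the genotypes overlapped at that age. At 1 month the sum was 19.5 to 51.8 CPM in R6/2 and 26.7 to 295 CPM in NCAR, with overlap. None of these genes passed the test of a change of the genotype difference between 2 and 3 months.

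In IP RNA at 3 months 2136 of 15040 genes were called (14.2%), 1518 of them in the same direction in input and 3 in the opposite one. The shared calls were 36.6% of the input calls and 72.0% of the IP calls. No label states whether input and IP libraries came from the same mice, so the shared calls may not be independent. The IP count was 1068 or 1155 without R6/2 IP replicate 1 or 2, and 955 or 831 without NCAR IP replicate 1 or 4. Among medium spiny neuron genes the test called lower 19 of 25 (median -1.15, beside 9.32% of all genes lower and 4.89% higher), and among MHC class II genes 7 of 8 (median -4.11). The interferon-inducible GTPases were lower for 17 of 17, and all immune lists together for 67 of 102 (median -2.11). The summed MHC class II level in IP was 8.69 to 47.2 CPM in R6/2 and 96.2 to 694 CPM in NCAR, without overlap. The summed astrocyte level in IP was 30179.8 to 35674 CPM in R6/2 and 40051 to 54615 CPM in NCAR, and 6 of 24 astrocyte genes were lower there (median -0.24).

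Myelin genes were lower for 12 of 22 in IP (median -1.32), while the input median was -0.30, and none of these genes passed the test of the difference between RNA types. That test called 24 of 15633 genes (0.154%), 8 with a higher (0.0512%) and 16 with a lower (0.102%) genotype difference in input than in IP. Sorcs2, a sorting receptor, had 52.8, 54.6, 53.5 and 60.9 CPM in R6/2 input, against 128, 122, 126 and 133 CPM in NCAR input. In IP it had 204, 233, 169.5 and 191 CPM in R6/2, against 229, 215, 207 and 205 CPM in NCAR, with overlap (difference of the log2 fold changes -1.09 ± 0.13, adjusted p = 0.00307). Trank1 had 331, 302, 296 and 345 CPM in R6/2 input, against 716, 758, 678 and 821 CPM in NCAR input. In IP it averaged 208 ± 57.3 CPM in R6/2, against 172 ± 15.6 CPM in NCAR (SD, n = 4 each), and the difference of the log2 fold changes was negative (-1.45 ± 0.22, adjusted p = 0.012). Igsf21, an adhesion protein of inhibitory synapses (-1.31 ± 0.20), Fam117a (-1.34 ± 0.19) and Npy2r, a neuropeptide Y receptor (-1.25 ± 0.22), had lower differences in input as well. For Zic2, a transcription factor (-1.64 ± 0.29), the negative value is a smaller rise in input. It averaged 9.46 CPM in R6/2 input, against 6.43 CPM in NCAR input, and 14.6 CPM in R6/2 IP, against 3.09 CPM in NCAR IP.

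In the other direction, Parva, an actin linker at cell adhesions, had 38.7, 38.3, 44.8 and 37.1 CPM in R6/2 input, against 20.0, 19.9, 19.5 and 20.3 CPM in NCAR input. In IP it averaged 102 ± 3.86 CPM in R6/2, against 84.9 ± 3.56 CPM in NCAR (SD, n = 4 each), a smaller difference (0.73 ± 0.11, adjusted p = 0.012). Echdc2 (1.31 ± 0.23), Wbscr27 (1.28 ± 0.24), Samd14 (1.00 ± 0.18), Nudt4 (0.78 ± 0.15) and Ppp1r26 (0.76 ± 0.14) also had higher differences in input. Without NCAR IP replicate 2 the test called 128 genes, and without R6/2 input replicate 4 it called 40. It called 9 to 15 without any one of R6/2 input replicates 1, 2 and 3, NCAR input replicates 2, 3 and 4, R6/2 IP replicates 1 and 2, and NCAR IP replicates 1 and 4. Of the 24 genes 7 were called in every fit that left out 1 library, among them Sorcs2, Igsf21, Fam117a and Parva.

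**Figure D5:**
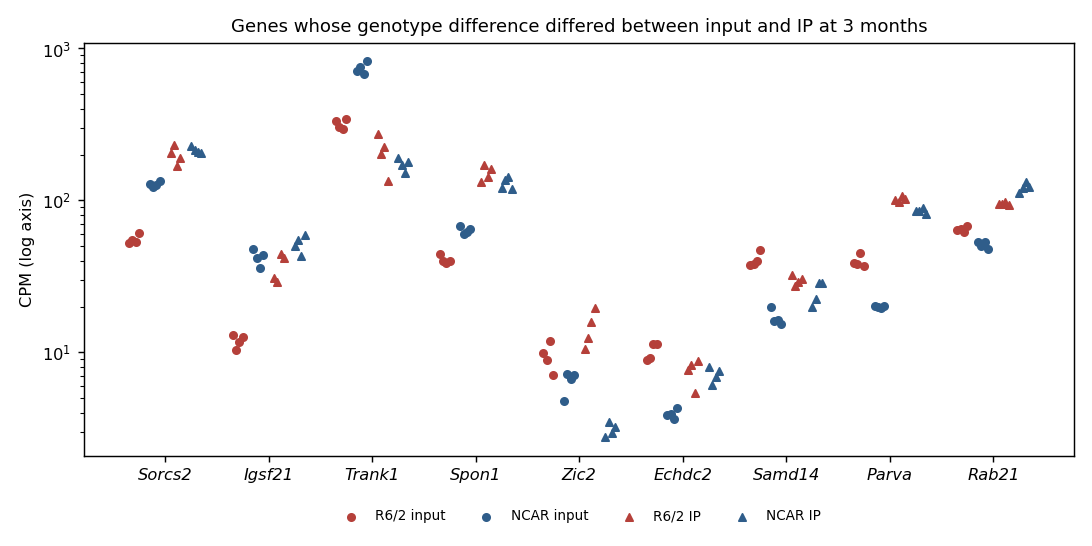
CPM on a log axis of 9 genes whose genotype difference differed between RNA types at 3 months, in each of the 16 libraries, in the order R6/2 input, NCAR input (circles), R6/2 IP and NCAR IP (triangles). Sorcs2, Igsf21 and Trank1 are separated by genotype in input and overlap in IP.

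Q175 striatum at 12 months was compared with WT in the same way, with 2855 of 15555 genes called (18.4%), 1032 higher and 1823 lower. With the deposited scaling, under which the median of all genes was 0.11 on the log2 scale, the split was 3199 higher and 1209 lower. The genes called in both models were 40.5% of the R6/2 calls and 61.9% of the Q175 calls, 1740 in the same direction and 34 in the opposite one. Among medium spiny neuron genes the test called lower 24 of 25 (median -0.73, beside 11.7% of all genes lower and 6.63% higher), and among D2 neuron genes 7 of 10 (median -0.97). Scn4b had 507, 543, 521 and 495 CPM in Q175, against 1873, 1863, 1898 and 1698 CPM in WT (log2 fold change -1.83 ± 0.06, adjusted p = 5.08e-09). Penk had 469, 505, 563 and 435 CPM in Q175, against 1240.5, 1178, 1355 and 1279.7 CPM in WT (log2 fold change -1.36 ± 0.08, adjusted p = 5.91e-07). Potassium and chloride channel genes were lower for 20 of 32 (median -0.41) and calcium store genes for 21 of 29 (median -0.50).

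Of 126 immune genes 10 were higher and 12 lower in Q175 (median -0.01), near the 6.63% higher and 11.7% lower of all genes, and no MHC class II gene was called (median 0.16). The summed MHC class II level was 568 to 1575 CPM in Q175 and 517 to 1180.3 CPM in WT, with overlap. Beta and gamma protocadherins were higher for 16 of 44 and lower for 6. Model, age, strain and run label all differ between these comparisons, and no test of their difference was made.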

How the data were processed

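Whole striatum polyA RNA of 4 R6/2 and 4 NCAR libraries was analysed, with the other groups named above only beside them. The labels' protocols name an RNeasy Micro Plus kit and TruSeq libraries, and the submitters' processing notes name STAR, HTSeq, edgeR and limma (versions not given in the sources used here) and mm10. Strand use in counting is not stated, so overlapping and antisense genes cannot be told apart. The deposited values are log2 CPM per gene and library, made by the authors. They turned back into whole reads (within 0.01, with a prior of 0.25 reads) for all 1506512 values of 96 libraries, that is 100% of them. Of the 15648 genes listed, those at or above the CPM that equals 10 reads at the median library size, in 4 or more libraries, and with 15 reads in total were tested. The symbols March1 and March2, each listed more than once, were left out.

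Reads were scaled by trimmed mean of M values (30% of M and 5% of A trimmed), put on the log2 CPM scale with a prior of 0.25 reads and tested in limma 3.58.1 (R 4.3.3) with a variance trend. P-values were two-sided and adjusted by Benjamini-Hochberg over all genes tested, with a threshold of 0.05. A count model had been planned for whole counts, but the files hold log2 CPM, so limma was used. Each comparison was fitted on its own 8 libraries, the interactions on 16. Errors are SE of the fit, and CPM per library are scaled values. Depth was 27.1 to 46.2 M reads. The fit was also run on simulated data, drawn with the same dispersion for all genes and groups. That run therefore does not cover the unequal spread of the immune genes between the genotypes.

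Positions, symbols and promoter windows came from RefSeq GRCm38.p6. Named were Htt, the 15 highest and 15 lowest genes of at least 5 mean CPM without overlap, up to 4 genes per list by p, and the 5 highest and 5 lowest of each interaction. Others, such as Gfap, B2m, Tac1 and the genes given in reads, were picked after their values were seen. The genes and lists were chosen with earlier results of these data known, and the lists of MHC class I, MHC class II, lymphocyte, GTPase and chemokine genes and the CCAAT and interferon motifs were added after seeing the data. Alternatives were other scalings, filters, priors and weights, leaving out single libraries and, added later, leaving out NCAR replicates 2 and 3 and an MHC class II covariate. Some genes that the rule names are not reported here.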

Additional observations from a re-analysis of the deposited data

Results flagged for a closer look

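Of 384 groups of 4 libraries examined for a library apart from the other 3, 18 held one, where chance gives about 1 in 20. In R6/2 replicate 4 stood apart as the highest library for Gabrd (72.2 CPM, others 51.0 to 54.5), Ly6c2 (0.649 CPM) and Cd3g (0.374 CPM), and for the summed oxidative phosphorylation genes (7730.4 CPM, others 6089 to 6123). It was the lowest R6/2 library for Meis2 (394 CPM, others 616 to 646) and Pde10a (501 CPM). R6/2 replicate 4 was also the library of greatest depth. R6/2 replicate 1 was the highest for Itpr1 (1019 CPM) and Tgtp2 (3.60 CPM), and R6/2 replicate 2 for Cd8a (0.632 CPM).

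In NCAR, replicate 3 was the highest library for Gbp8 (75.4 CPM, others 12.3 to 14.5) and Abca1 (140.0 CPM) and the lowest for Pcdhgb5 (10.5 CPM). NCAR replicate 4 was the highest for Nr1d1 (91.9 CPM), Cry1 (31.8 CPM), the summed astrocyte genes (10572 CPM, others 8821 to 9070) and the summed glutamate receptor genes (9192 CPM), and the lowest for Hspb8 (18.6 CPM). NCAR replicate 1 was the lowest for the summed chemokine genes (886 CPM, others 1125 to 1148).

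The genotype difference differed between input and IP for the genes named above (limma, test of the difference, adjusted p under 0.05). As log2 differences, input minus IP, the values were -1.64 for Zic2, -1.45 for Trank1, -1.34 for Fam117a, -1.31 for Igsf21, -1.25 for Npy2r and -1.09 for Sorcs2. In the other direction they were 0.73 for Parva, 0.76 for Ppp1r26, 0.78 for Nudt4, 1.00 for Samd14, 1.28 for Wbscr27 and 1.31 for Echdc2.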

How the results depend on the processing

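The 4318 calls became 4094 to 4682 under other scalings, filters, priors, voom weights, robust variance or the 16-library fit, and 6428 with weights per library. Leaving out 1 library gave 2877 to 5172, and leaving out NCAR replicates 2 and 3 gave 1777. With the mean log2 CPM of MHC class II genes as a covariate, which is itself among the genes that fell, 263 were called, 23 higher and 240 lower. Of 119 named genes called outside the immune and reactive astrocyte lists, 46 were called with it and 73 were not, and of the 25 medium spiny neuron genes 16 were (median -1.21). The summed MHC class II level did not overlap between the genotypes (31.4 to 128 CPM in R6/2, 507 to 2286 CPM in NCAR). What the covariate removes therefore cannot be told apart from genotype. At 2 months leaving out 1 library gave 1616 to 2449 calls, at 1 month 1093 to 2029, and in IP 831 to 3133. In Q175 leaving out 1 library gave 2058 to 2556, and the deposited scaling gave 4408. The change with age held 0 calls by limma in all settings run, with 534 to 1209 genes at an unadjusted p under 0.05. A share of about 0.05 of the genes tested would fall under that threshold by chance alone. The RNA type test gave 16 to 26 calls under other settings and 9 to 128 with 1 library left out, and its split was 8 higher and 16 lower, or 12 and 14 with the deposited scaling. The cause of these shifts was not tested.

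Of 145 named genes called at 3 months, 137 were called in every fit that left out 1 library and 8 were not. Alas2 lost its call without R6/2 replicate 1 or 3 or NCAR replicate 1 or 2, Arc without R6/2 replicate 1 or 4 or NCAR replicate 1, 3 or 4, Npy without R6/2 replicate 3 or NCAR replicate 1 or 2, P2ry12 without R6/2 replicate 3 or NCAR replicate 1, 2 or 3, and Onecut1 without R6/2 replicate 3. Mertk lost it without R6/2 replicate 3 or NCAR replicate 2 or 4, Nudt4 without any one library except R6/2 replicate 4 or NCAR replicate 2, and Zic2 without any one except R6/2 replicate 4. Without NCAR replicates 2 and 3, 26 lost it, which were these 8 except Arc and Foxp1, Gnal, Gad2, Pdyn, Gabra5, Sdha, Cry1, Dnaja1, Slco1a4, H2-DMb1, Pou2af1, Gadd45g, Bbc3, Slc14a1, Pcdhb3, Pcdhb12, Cd3g, Cd8a and Cd79a. Genes not called changed sign: Tac1 had -0.047 with weights per library, -0.024 without NCAR replicates 2 and 3 and -0.064 to 0.15 with 1 library left out, and Fosb had 0.10, 0.21 and -0.17 to 0.19, and 0.15 with the covariate. Fos ranged over -0.66 to 0.035 with 1 library left out.

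No paired analysis was possible because the replicate numbers follow accession order and no label ties one library to another. This holds for R6/2 and NCAR libraries and for input and IP libraries. Input and IP libraries therefore entered the test of RNA types unpaired, although the labels do not exclude that they share mice. The number of libraries, possible differences between NCAR mice that no label records, and the unknown cargo of the virus limit what the comparison can show.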

Other observations

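Of 38 promoter windows of 20 medium spiny neuron genes, 0 held the full cyclic AMP response element (TGACGTCA, either strand) and 15 held CCAAT. Of the 6 windows of 6 D2 neuron genes, 1 (Gpr6) held the element and 4 held CCAAT. Over all windows the shares were 1.79% and 37.4%. Of 16 windows of 14 MHC class I and peptide loading genes, 11 held CCAAT and 4 the interferon-stimulated response element. The Egr site (GCGTGGGCG, either strand) was in 0 of 28 windows of 17 immediate early genes and in 0.61% of all windows. Scn4b, Pde10a and Ryr1, which fell, are among the medium spiny neuron genes with CCAAT in a window. Windows of 1 gene can overlap, and a match is not a measured binding site.

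The median SD of log2 (CPM + 1) between libraries was 0.184 in R6/2 and 0.0901 in NCAR for medium spiny neuron genes, and 0.218 in R6/2 and 0.194 in NCAR for astrocyte genes. For immediate early genes it was 0.275 in R6/2 and 0.553 in NCAR, and for lymphocyte genes 0.246 in R6/2 and 1.12 in NCAR. No test of these differences was made.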
